A study of Mus musculus with 10 samples.

Results

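Hepatic stellate cells are the vitamin A-storing mesenchymal cells of the liver. They lie between hepatocytes and the endothelium of the sinusoids, and they hold retinol as esters in lipid droplets. After injury they lose this store, respond to platelet-derived growth factor, take on a contractile, myofibroblast-like state and lay down fibrillar collagen, which lysyl oxidases then cross-link. The 10 genes described here mark these states: the contractile and cytoskeletal genes Acta2, Tagln and Des, the growth factor receptors Pdgfra and Pdgfrb, the quiescent cell genes Lrat and Reln, and the cross-linking enzymes Lox, Loxl1 and Loxl2. They were chosen by symbol from the 55291 rows of the gene table, and all 10 were among the 17015 genes that passed the low-count filter.

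Livers came from 16- to 20-week-old female Cas9 Lox-Stop-Lox mice, all of which received an AAV8 vector that carries a guide RNA and Cre. The guide was either a non-targeting control (NTC) or one against Bap1 (sgBap1), a nuclear deubiquitinase. On day 10 each mouse received carbon tetrachloride (CCl4), a hepatotoxin, as 1 part in 9 parts of olive oil, or olive oil alone (Veh), and livers were taken 48 h later for bulk RNA sequencing. The groups were NTC-Veh with 2 livers, sgBap1-Veh with 2, NTC-CCl4 with 3 and sgBap1-CCl4 with 3, each a separate mouse. Cre was under the hepatocyte promoter TBG, so stellate cells were not the cells the guide was meant to edit. RNA came from whole liver, and the cell type that carried each transcript was not measured. Bap1 itself was at 34.8 CPM in both NTC-Veh livers and at 17.5 and 19.5 CPM in the sgBap1-Veh livers (CPM, counts scaled to a common library size, with a correction for library composition, the unit of edgeR). With CCl4 it was at 29.5 to 31.5 CPM in NTC livers and at 17.0 to 21.8 CPM in sgBap1 livers, and it fell by 0.91 and by 0.65 on the log2 scale (edgeR quasi-likelihood test, Benjamini-Hochberg adjusted p = 0.0208 and 0.0295).

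The libraries held 33000000 to 52200000 estimated counts. Hnf4a, a hepatocyte transcription factor, was between 396 and 613 CPM in every liver. One library stood apart. The sgBap1-CCl4 replicate 2 liver held the fat cell genes Cfd at 144 CPM, Adipoq at 36.4, Plin1 at 34.5 and Retn at 17.7, whereas each of these was at or under 3 counts in the other 9 livers. It also held smooth muscle Myh11 at 21.1 CPM against a mean of 6.98 in the other 2 sgBap1-CCl4 livers, Actg2 at 3.71 against 0.704 and Cnn1 at 2.00 against 0.383. Other contractile genes differed less. Of 9 contractile genes at 1 CPM or more in those 2 livers, 8 were higher in replicate 2, with a median ratio of 1.29. The lowest ratio was that of Cald1, 0.802. Results that rest on this liver are given with and without it.

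Positions of the genes shown or discussed by sequence are those of the GRCm38 assembly with GENCODE vM21 gene models. Acta2 is at chr19:34241090-34255590 on the minus strand and Tagln at chr9:45929619-45936058 on the minus strand, with Loxl1 on the same chromosome at chr9:58287738-58313186. Des is at chr1:75360329-75368579 on the plus strand. Pdgfra and Reln share chromosome 5, at chr5:75152292-75198215 on the plus strand and chr5:21884454-22344702 on the minus strand. Lrat is at chr3:82892579-82903973 on the minus strand and Loxl2 at chr14:69609068-69695834 on the plus strand. Of the panel, Loxl2 has the least private sequence: 45% of the 50-base words of its transcripts also occur in transcripts of other genes, among them the pseudogene Gm21451. The table gave Gm21451 at most 38.2 estimated counts, in a liver where Loxl2 had 2259, and 16.9 in NTC-Veh replicate 2, where Loxl2 had 108.

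RefSeq promoters (GRCm38.p6) were at hand for 5 of the 10 genes, Acta2, Des, Pdgfra, Lrat and Reln. The 250 bases before each start were searched for the CArG box, the binding motif of serum response factor, which is known for its place in smooth muscle actin promoters. Up to 1 mismatch was allowed in the 6 central bases, and the motif reads the same on both strands. Acta2 held 2 matches, Lrat held 1, and Des, Pdgfra and Reln held 0. Of 32851 promoters searched in the same way, 8.59% held at least 1 match and 0.670% held at least 2. The stretches of 30 bases around each match are shown 5′ to 3′ on the gene's strand, with the match in capitals.
Acta2, 84 bases before the start, chr19:34255438-34255467: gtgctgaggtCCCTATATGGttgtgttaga
Acta2, 34 bases before the start, chr19:34255388-34255417: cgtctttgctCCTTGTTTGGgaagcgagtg
Lrat, 223 bases before the start, chr3:82904178-82904207: cttctcaccgCCAAGAAAGGtgctccattc
Both Acta2 stretches lie upstream of the RefSeq start but within the first exon of the longer GENCODE model, and the Lrat stretch lies outside its gene model. These are matches of letters, and binding was not measured.

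Before injury, Lrat led the panel. Per kilobase of exon, the mean level in NTC-Veh livers ran from Lrat at 3.42 CPM per kb ± 0.297 (SD, n = 2) through Tagln at 2.23, Reln at 2.17, Pdgfrb at 1.85, Des at 1.41, Acta2 at 0.982, Pdgfra at 0.694, Loxl2 at 0.554 and Loxl1 at 0.511 to Lox at 0.0432. Lrat stood clear of the next gene in both livers, while the ranges of Tagln and Reln, of Reln and Pdgfrb, of Pdgfrb and Des, and of Loxl2 and Loxl1 overlapped. After CCl4 the contractile genes Tagln and Acta2 led. In NTC-CCl4 livers Tagln was at 33.2 CPM per kb ± 4.39 (SD, n = 3) and Acta2 at 17.3 ± 2.53, each above the next gene in every liver, and Lrat, at 5.04 ± 0.857, came after Pdgfrb at 7.19 and Loxl2 at 6.57. Lox remained lowest by mean in these livers, at 1.07 CPM per kb, though its range overlapped that of Loxl1.

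The first comparison asked how the panel responded to acute CCl4 in control livers. In NTC-CCl4 against NTC-Veh, 8 of the 10 genes rose and none fell (edgeR, adjusted p under 0.05), beside 27.4% of all tested genes that rose and 26.6% that fell. The median log2 fold change of the panel was 1.86, beside 0.03 over all tested genes. The rises of Acta2, Tagln, Lox and Loxl2 were over 10-fold, those of Des, Pdgfra, Pdgfrb and Lrat were smaller, and Reln and Loxl1 did not pass the test. In bulk tissue more cells of a type and more RNA per cell cannot be told apart, and this holds for each change below.

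Acta2, which encodes α-smooth muscle actin, the usual marker of the activated cell, was at 2.21 and 2.11 CPM in the NTC-Veh livers and at 34.0, 44.4 and 35.8 CPM in the NTC-CCl4 livers. Every treated liver lay far above both controls, a 17.6-fold rise (95% interval 7.61 to 40.8, adjusted p = 0.000279). Tagln, which encodes the actin-binding protein transgelin, went from 3.76 and 5.13 CPM to 59.4, 75.9 and 62.9, a 14.9-fold rise (95% interval 9.51 to 23.2, adjusted p = 6.83e-06). Des encodes desmin, the intermediate filament protein long used to find rodent stellate cells. It was at 4.87 and 5.71 CPM in the controls and at 18.4, 19.5 and 15.4 CPM after CCl4, a rise of 3.36-fold (adjusted p = 4.68e-05).

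**Figure D1:**
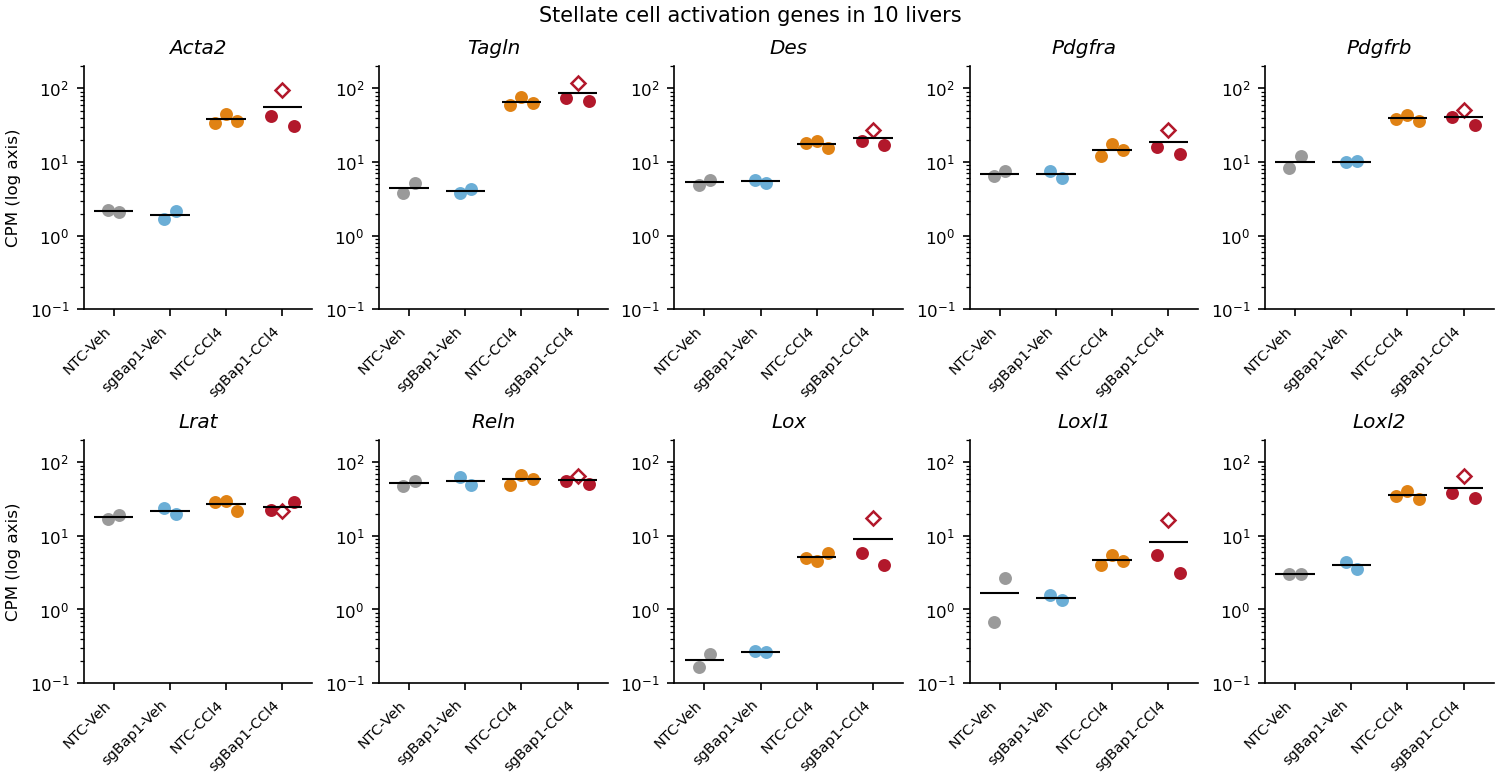
Level of each of the 10 genes in every liver, in CPM on a log axis, by group. Points are livers, the horizontal line is the group mean, and the open diamond is sgBap1-CCl4 replicate 2. Lrat livers lie between 17.2 and 30.0 CPM in all 4 groups, while Acta2 goes from about 2.21 to 34.0 CPM or more in NTC livers.

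The 2 receptors bind platelet-derived growth factors, which drive division and migration of stellate cells. Pdgfrb was at 8.25 and 12.0 CPM in NTC-Veh livers and at 38.7, 43.1 and 36.3 CPM in NTC-CCl4 livers, so the groups did not overlap (3.89-fold, adjusted p = 4.19e-05). Pdgfra, which portal fibroblasts express as well, was at 6.40 and 7.51 CPM and then at 12.0, 17.8 and 14.6 CPM. Its rise was smaller, at 2.13-fold (adjusted p = 0.0162), and without either NTC-Veh liver it no longer passed the test (adjusted p = 0.106 without replicate 1 and 0.0592 without replicate 2). Of the 4 ligands, 3 rose and 1 did not pass the test. Pdgfb rose from 0.735 and 1.08 CPM to between 4.49 and 6.35 (log2 fold change 2.50), Pdgfa from 2.80 and 3.93 to between 8.28 and 11.4 (1.55) and Pdgfc from 2.18 and 2.60 to between 5.95 and 7.33 (1.44). Pdgfd was at 1.23 and 1.08 CPM and then at 0.676 to 1.07 CPM (log2 fold change -0.36, adjusted p = 0.369).

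The quiescent cell genes did not fall. Lrat encodes the acyltransferase that esterifies retinol for storage. It was at 17.2 and 19.4 CPM in NTC-Veh livers and at 29.1, 30.0 and 21.7 CPM in NTC-CCl4 livers, a 1.48-fold rise that was the smallest of those called (adjusted p = 0.0162). It lost the call without NTC-Veh replicate 1 (adjusted p = 0.119), without NTC-CCl4 replicate 1 (0.0501) and without NTC-CCl4 replicate 2 (0.0508). Reln encodes reelin, a secreted glycoprotein. It was at 47.6 and 55.3 CPM in controls and at 49.6, 67.0 and 58.8 CPM after CCl4, so the groups overlapped (log2 fold change 0.19, 95% interval -0.17 to 0.54, adjusted p = 0.351). Both values depended on the scaling: composition factors were 0.786 to 0.851 in vehicle libraries and 1.08 to 1.24 in CCl4 libraries, and with library size alone the median of all tested genes moved up by 0.47 and Reln passed as higher (log2 fold change 0.66, adjusted p = 0.0152). Of all calls, 50.8% were rises with composition scaling and 80.5% with library size alone.

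The lysyl oxidases, copper enzymes that start the cross-links in collagen and elastin, differed in their levels. Lox was barely detected in NTC-Veh livers, at 0.163 and 0.249 CPM or 6 and 9 counts, and was at 4.99, 4.62 and 5.78 CPM in NTC-CCl4 livers. The rise was 24.5-fold, with a wide interval of 6.15 to 97.7 (adjusted p = 0.00214). Loxl2 went from 2.99 CPM in both controls to 34.2, 41.2 and 31.2 CPM (11.9-fold, adjusted p = 1.79e-05). Its log2 fold change was 3.57, and 3.47 when the counts of Gm21451 were added, an alternative chosen after seeing the data.

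Loxl1, which is known for its part in elastic fibres, was at 0.681 and 2.69 CPM in the NTC-Veh livers and at 3.97, 5.47 and 4.50 CPM in the NTC-CCl4 livers. All treated livers were higher, but the gap between the 2 controls was wide and the test was not passed (log2 fold change 1.47, 95% interval -0.34 to 3.27, adjusted p = 0.149). The control with the low Loxl1 value, NTC-Veh replicate 1, also had little of the mesothelial genes Msln, at 0.136 CPM against 4.82 in replicate 2, and Upk3b, at 0.109 against 5.35. The part of these cells in the Loxl1 value was not tested. Without sgBap1-CCl4 replicate 2, whose spread enters the shared fit, Loxl1 passed at the same log2 fold change of 1.47 (adjusted p = 0.0256).

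The other 2 members of the enzyme family rose as well. Loxl4 went from 0.898 and 1.66 CPM to 13.1, 11.0 and 16.7 CPM (log2 fold change 3.40, adjusted p = 4.88e-05) and Loxl3 from 1.96 and 1.88 CPM to between 3.90 and 5.01 (1.21, adjusted p = 0.00122). Of the 19 tested genes of collagen maturation and cross-linking, 15 rose and 1 fell, with a median log2 fold change of 1.10. Among them were Serpinh1, the collagen chaperone HSP47 (2.84), Fkbp10, a collagen-folding isomerase (2.53), and Tgm2, a transglutaminase (1.98).

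**Figure D2:**
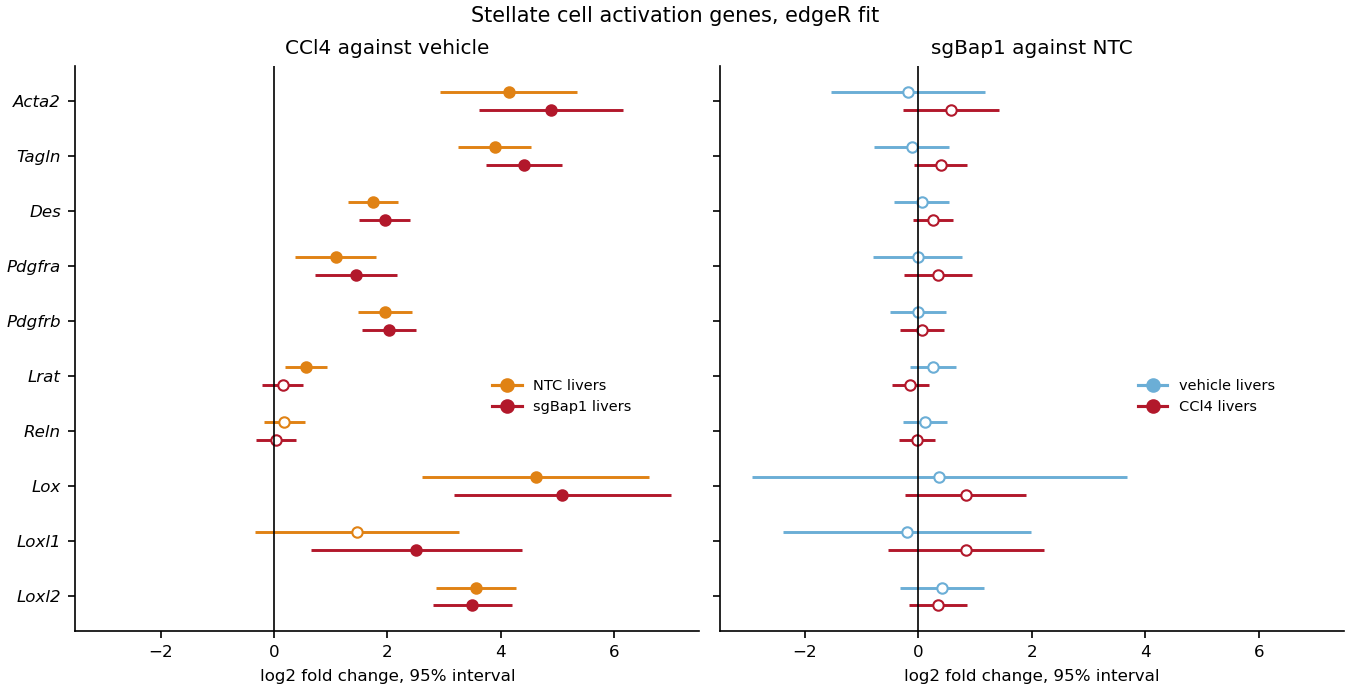
Log2 fold change of the 10 genes with its 95% interval, on the left for CCl4 against vehicle in each genotype and on the right for sgBap1 against NTC in each treatment. Filled points passed an adjusted p of 0.05. The left panel runs from 0.04 for Reln in sgBap1 livers to 5.09 for Lox, while no point in the right panel is filled.

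Around the panel, genes of the activated cell rose together with it, whereas the identity genes of the stellate cell split. Of 17 activated stellate cell and myofibroblast genes, 13 rose and none fell in NTC livers, with a median log2 fold change of 2.81. Timp1, an inhibitor of matrix metalloproteinases, went from 0.191 and 0.970 CPM to between 21.4 and 22.2, Col1a1, the main chain of type I collagen, from 3.43 and 7.57 to between 93.1 and 143, Tagln2 from 14.0 and 16.02 to between 172 and 175, and S100a6 from 1.44 and 3.52 to between 20.6 and 32.8.

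Of 14 stellate identity genes, 2 rose, 7 fell and 5 did not pass the test, with a median log2 fold change of -0.45. Vipr1, a receptor for vasoactive intestinal peptide, was at 44.0 and 44.1 CPM in the controls and at 11.2, 11.6 and 10.3 CPM after CCl4, a decrease in every liver (log2 fold change -1.99, adjusted p = 1.87e-06). Colec11, a soluble collectin, fell from 33.0 and 36.1 CPM to 15.4, 19.3 and 13.1 CPM (-1.11). Hgf, the hepatocyte growth factor that stellate cells secrete, rose from 8.06 and 7.40 CPM to 24.9, 31.3 and 25.2 CPM (1.81), and the neurotrophin receptor gene Ngfr from 5.15 and 3.60 to between 8.98 and 10.6 (1.14). With library size alone, 6 of the 14 rose and 4 fell.

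Of 15 tested retinoid genes, 2 rose and 5 fell, beside the 27.4% and 26.6% of all tested genes, so the list is described by its members. Cyp26b1, which breaks down retinoic acid, rose from 2.10 and 0.942 CPM to between 4.29 and 6.67 (log2 fold change 1.94) and Bco1, which cleaves β-carotene, from 12.2 and 15.1 to between 21.8 and 24.5 (0.78). The related Cyp26a1 went the other way, from 4.74 and 2.38 CPM to 0.597, 0.507 and 0.312 CPM, lower in every treated liver. Rbp4, the serum carrier of retinol made by hepatocytes (-1.34), and Dhrs3, a retinal reductase (-1.27), fell. With library size alone the counts were 6 higher and 3 lower, and without sgBap1-CCl4 replicate 2 they were 4 and 7.

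Acta2, Tagln and Des are also genes of vascular smooth muscle, so the contractile list is given beside them. Of 13 contractile genes, 7 rose, 1 fell and 5 did not pass the test in NTC livers. Those that rose included broadly expressed genes such as Flna, which encodes filamin A (log2 fold change 2.86), and the tropomyosins Tpm1 (2.14) and Tpm2 (1.83), and also Myl9, the smooth muscle myosin light chain (1.85). The 1 that fell was Mylk, from 146 and 151 CPM to between 67.2 and 73.5 CPM. Those that did not pass in NTC livers were the more restricted smooth muscle genes Actg2, Cnn1, Myh11, Lmod1 and Synpo2. Actg2 was at 0.218 and 0.111 CPM in controls and at 0.468 to 0.938 CPM after CCl4, higher in every treated liver (2.14, adjusted p = 0.16). Cnn1 was at 0.109 and 0.111 CPM in controls and at 0.0751 to 0.171 CPM in NTC-CCl4 livers (-0.02, adjusted p = 0.993), and Myh11 at 2.15 and 2.94 and then at 4.53 to 6.91 CPM (1.10, adjusted p = 0.150). Lmod1 was at 0.545 and 0.527 CPM and then at 0.364 to 0.554 CPM. Synpo2 was at 0.545 and 0.582 CPM and then at 0.714 to 1.04 CPM. Without sgBap1-CCl4 replicate 2, 9 of the 13 contractile genes rose. None of 9 tested portal fibroblast and mesothelial genes was called. Of 5 macrophage genes, 4 rose: Cd68 (3.27), Lyz2 (2.96), Adgre1 (1.85) and Csf1r (1.56). Clec4f did not pass, at 88.8 and 61.5 CPM in NTC-Veh livers and 51.0 to 78.7 CPM in NTC-CCl4 livers. The summed level of the 5 was 150 to 205 CPM in NTC-Veh livers and 601 to 776 CPM in NTC-CCl4 livers. Most of the latter was Lyz2, at 368 to 455 CPM. The part of macrophages in the change of the panel was not tested.

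**Figure D3:**
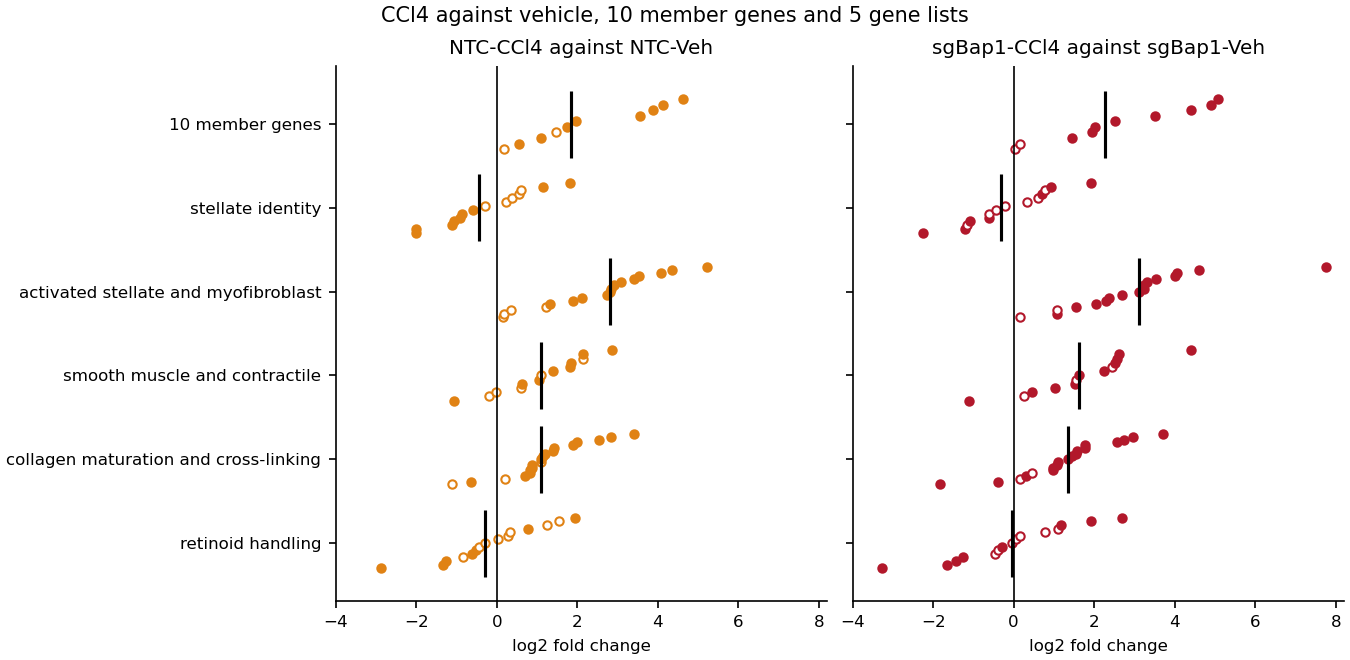
Log2 fold change with CCl4 for the 10 genes and the tested genes of 5 lists, for NTC livers on the left and sgBap1 livers on the right. Each point is a gene, filled where it passed an adjusted p of 0.05, and the vertical bar is the median, which for the stellate identity list is -0.45 and -0.33 and for the activated list 2.81 and 3.12.

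The second comparison asked the same in livers with the Bap1 guide. In sgBap1-CCl4 against sgBap1-Veh, 8 of the 10 genes rose and none fell, beside 29% of all tested genes that rose and 28% that fell, and the median log2 fold change of the panel was 2.27. Acta2 went from 1.67 and 2.17 CPM to 42.7, 95.5 and 31.1 CPM, a 29.7-fold rise (95% interval 12.3 to 71.4, adjusted p = 0.000131). Tagln went from 3.82 and 4.38 CPM to 74.4, 118 and 67.6 CPM (21.2-fold) and Loxl2 from 4.41 and 3.52 to 38.5, 64.2 and 32.8 (11.3-fold). In each of these the highest value was that of replicate 2, the liver with fat cell RNA and high Myh11, Actg2 and Cnn1.

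Des rose from 5.71 and 5.28 CPM to 19.6, 27.0 and 17.2 CPM (3.87-fold), Pdgfrb from 9.88 and 10.3 to 41.2, 50.3 and 31.8 (4.08-fold) and Pdgfra from 7.64 and 6.10 to 15.9, 27.4 and 12.8 (2.72-fold). No CCl4 liver overlapped a vehicle liver for any of the 3. Lox went from 0.269 and 0.262 CPM to 5.89, 17.3 and 4.08 CPM (34.0-fold, 95% interval 8.997 to 128, adjusted p = 0.000942).

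Loxl1 was at 1.56 and 1.35 CPM with vehicle and at 5.45, 16.3 and 3.15 CPM with CCl4, and passed in this genotype (5.70-fold, adjusted p = 0.0281). The call was lost without sgBap1-Veh replicate 1 (adjusted p = 0.126) or replicate 2 (0.130). Lrat was at 23.8 and 19.99 CPM and then at 22.7, 21.9 and 28.6 CPM, and Reln at 62.5 and 49.0 and then at 55.1, 65.9 and 51.2 CPM. Both overlapped between the groups and neither passed, with log2 fold changes of 0.15 (95% interval -0.21 to 0.52) and 0.04 (95% interval -0.31 to 0.39). With library size alone both passed, at 0.62 and 0.53.

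Without sgBap1-CCl4 replicate 2 the count of genes called was again 8, with Acta2 at a log2 fold change of 4.28 in place of 4.89, Lox at 4.22 in place of 5.09 and Loxl1 at 1.56 in place of 2.51. The ligands Pdgfa (log2 fold change 0.91), Pdgfb (2.22) and Pdgfc (1.32) rose in this genotype too, and so did Loxl4 (3.71) and Loxl3 (0.98). Of the lists, 15 of 17 activated genes, 9 of 13 contractile genes and 15 of 19 collagen maturation genes rose. Of the contractile genes, Myh11 (2.24, adjusted p = 0.0126) and Actg2 (4.41, adjusted p = 0.0159) passed here, with their highest values in replicate 2. Of the 14 stellate identity genes 3 rose and 4 fell, not far from the 29% and 28% of all tested genes, so the list is described by its members. Vipr1 (-2.25) and Colec11 (-1.21) were among those that fell, and Hgf (1.91) and Ngfr (0.92) among those that rose. Retinoid genes were 3 higher and 5 lower of 15 tested, also not far from those shares. In addition, 1 of 9 portal fibroblast and mesothelial genes fell. With library size alone the identity genes were 6 higher and 3 lower, the retinoid genes 7 and 4, and the portal fibroblast and mesothelial genes 2 and 0, so the balance of these lists turned with the scaling. Of the macrophage genes 3 of 5 rose and 1 fell, Clec4f, from 170 and 116 CPM to between 47.1 and 65.4 CPM. Without sgBap1-CCl4 replicate 2 the macrophage genes were 2 higher and 1 lower, the identity genes 2 and 5, and the retinoid genes 3 and 6.

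The genotype comparisons asked whether loss of Bap1 in hepatocytes was accompanied by a change in these stellate cell genes. With vehicle, 0 of the 10 genes passed between sgBap1-Veh and NTC-Veh, beside 0.406% of all tested genes, and 0 were under an unadjusted p of 0.05 in edgeR. DESeq2 also called 0 of the 10, beside 553 of all genes. Both groups of this comparison serve as controls in the CCl4 comparisons. The median log2 fold change was 0.02. The 95% interval lay within a 2-fold change either way for 6 genes, Tagln, Des, Pdgfra, Pdgfrb, Lrat and Reln, of which Pdgfrb was at a log2 fold change of -0.0060 (95% interval -0.50 to 0.49). For Lox, at 6 to 10 counts a library, the interval of -2.94 to 3.67 left changes of several-fold undetectable at this depth.

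Lrat, Loxl2 and Lox had higher CPM in both sgBap1-Veh livers than in both NTC-Veh livers. With 2 livers a group such an order arises readily without a change, and its share over all tested genes is not given here. For Lox the counts themselves overlapped, at 10 and 7 against 6 and 9. For Lrat the values were 23.8 and 19.99 against 17.2 and 19.4 CPM, and the difference was not past the test (log2 fold change 0.26, adjusted p = 0.645). For Loxl2 they were 4.41 and 3.52 against 2.99 CPM (0.41, adjusted p = 0.702). Of the 119 tested genes of the lists, 1 was called, the macrophage gene Csf1r, at 80.8 and 56.5 CPM against 35.6 and 30.4 (log2 fold change 1.06, adjusted p = 0.0487). In fits that leave out 1 liver, no list gene was called except without sgBap1-CCl4 replicate 2, where 3 were.

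After CCl4, 0 of the 10 genes passed between sgBap1-CCl4 and NTC-CCl4, beside 0.329% of all tested genes, again with 0 under an unadjusted p of 0.05 in edgeR. In DESeq2 0 of the 10 were called, beside 481 of all genes. With all livers 8 of the 10 log2 fold changes were positive, with a median of 0.34, led by Loxl1 at 0.84 (95% interval -0.53 to 2.22), Lox at 0.84 (-0.23 to 1.90) and Acta2 at 0.57 (-0.27 to 1.41). The livers of the 2 groups overlapped for all 10 genes, and the share over all tested genes is not given here. The 95% interval lay within a 2-fold change for 7 genes, all but Acta2, Lox and Loxl1.

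These positive values rested on sgBap1-CCl4 replicate 2. Without it Acta2 was at a log2 fold change of -0.04 (95% interval -0.40 to 0.31), Lox at -0.03 (-0.46 to 0.40), Loxl1 at -0.11 (-1.03 to 0.82), Pdgfra at -0.04 (-0.44 to 0.36) and Pdgfrb at -0.11 (-0.47 to 0.25). Tagln at 0.10, Des at 0.05 and Loxl2 at 0.0053 stayed positive and close to 0.

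In replicate 2, 9 of the 10 genes were above the mean of the other 2 sgBap1-CCl4 livers. Loxl1 was 3.80 times that mean, Lox 3.47, Acta2 2.59, Pdgfra 1.91, Loxl2 1.80, Tagln 1.67, Des 1.47, Pdgfrb 1.38 and Reln 1.24 times, while Lrat was at 0.853. The same liver was above for 15 of 16 activated stellate and myofibroblast genes at 1 CPM or more (median ratio 1.92), with Col1a1 at 402 against 103 CPM, and for all 7 portal fibroblast and mesothelial genes (median 2.13). The stellate identity genes were near the level of the other livers (7 of 13 above, median 1.03), and hepatocyte genes were lower (2 of 6 above, median 0.804). The summed level of the 6 fat cell genes was 244 CPM in this liver and 0.807 to 12.2 CPM in the other 9, nearly all of the latter from Adrb3. Whether cells of fat, vessel wall or capsule tissue account for the higher values in this liver was not tested.

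**Figure D4:**
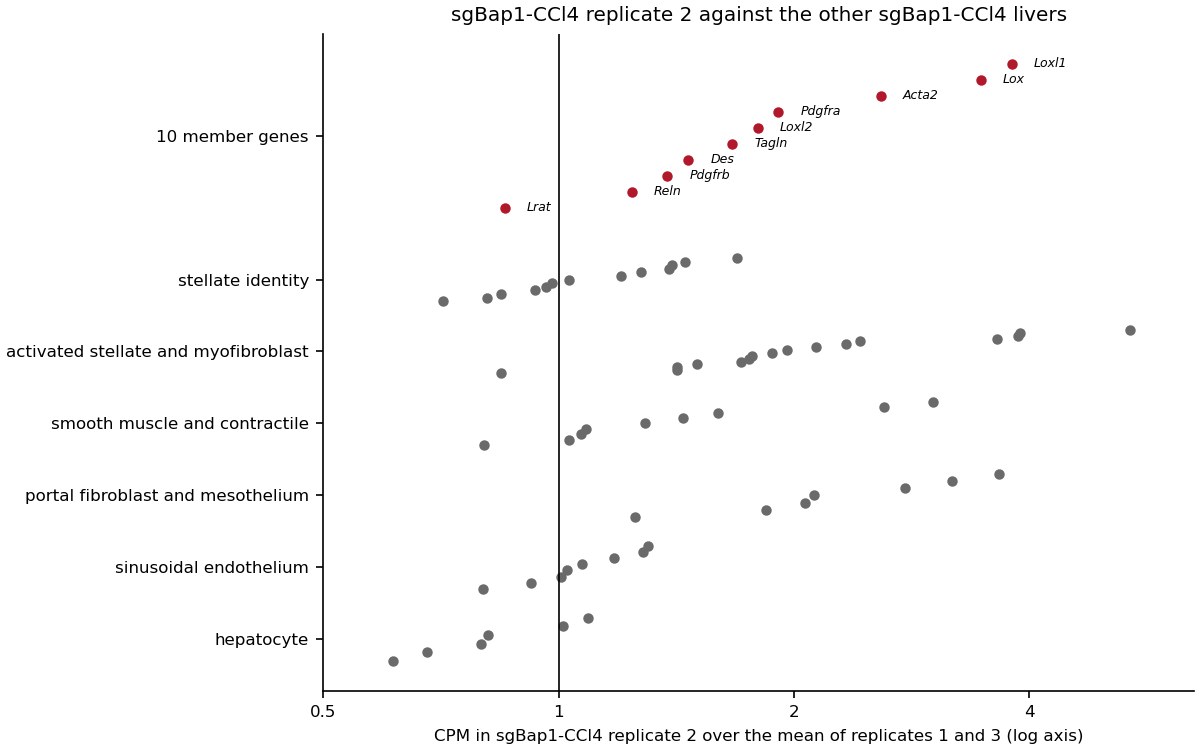
CPM in sgBap1-CCl4 replicate 2 divided by the mean of sgBap1-CCl4 replicates 1 and 3, on a log axis, for the 10 genes and for list genes at 1 CPM or more in those 2 livers. Values run from 0.853 for Lrat to 3.80 for Loxl1 among the 10 genes, and fat cell genes are not drawn because most are at or near 0 in the other livers.

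The test of whether the CCl4 response differed between genotypes (the interaction of genotype and treatment) called 0 of the 10 genes and 0% of all 17015, with a smallest adjusted p of 0.0694 over all genes. An unadjusted p under 0.05 was found for 1764 genes, none of them in the panel. DESeq2 called 0 of the 10, beside 408 of all genes. The lowest unadjusted p of the panel was that of Lrat, 0.110, with a difference in log2 fold change of -0.41 (95% interval -0.93 to 0.11), its CCl4 rise being 0.56 in NTC livers and 0.15 in sgBap1 livers. For Acta2 the difference was 0.75 (-0.85 to 2.35), and 0.14 without replicate 2. Thus Lrat, called in NTC livers alone, and Loxl1, called in sgBap1 livers alone, were not shown to differ between the genotypes.

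Deviations of each liver from its group mean were compared across 12018 genes with at least 100 mean counts, to name the genes most like 3 of the panel over the 10 livers. Those most like Acta2 were Anapc11 (Pearson r = 0.98), Trmt44 (0.97) and Fzd1 (0.97). Without sgBap1-CCl4 replicate 2 these correlations were 0.95, 0.94 and 0.91. For Pdgfrb they were Obsl1 (0.99), Yju2 (0.98) and Adamtsl2 (0.97), and for Lrat they were Dmac2 (0.98), Csk (0.96) and Msto1 (0.96). These are the highest of many correlations over few livers that share libraries and scaling, and are given as a description.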

How the data were processed

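Poly(A) RNA of 10 livers was sequenced from stranded libraries. The authors aligned reads to GRCm38 with STAR 2.7.6a and quantified genes with Salmon 1.4.0 (GENCODE vM25). The deposited table holds the estimated counts (expected counts) of Salmon per gene, and 9.22% of its values were not whole. They were rounded here. Groups came from the sample titles.

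Genes were filtered with filterByExpr, scaled by TMM and fitted in edgeR 4.0.16 (R 4.3.3) with 1 model of the 4 groups and robust quasi-likelihood tests. P-values were adjusted by Benjamini-Hochberg over 17015 genes, and a gene was called at 0.05. Intervals are 95%. CPM uses TMM-scaled library sizes, and 3 counts correspond to 0.0511 to 0.112 CPM. No test was run on a list: counts and medians describe it. The fit was tested on simulated counts in which 200 genes were changed, evenly up and down. For NTC-CCl4 against NTC-Veh, 74% of genes changed by log2 1 and 93% of those changed by log2 2 were found. For sgBap1-Veh against NTC-Veh these shares were 73% and 86%. Far more genes changed with CCl4 in the data, so the simulated shares do not carry over to that comparison. DESeq2 1.42.0, other scalings and filters, a replicate block and omission of each liver were tried.

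The 10 genes, the 13 marker lists and the rule for naming genes were chosen with earlier results of these data known. Named were the 10 genes, Bap1, the PDGF ligands, Loxl3 and Loxl4, up to 4 genes a list with the largest change among those called in NTC-CCl4 or sgBap1-Veh against NTC-Veh with at least 100 mean counts, and markers near 0 or setting a liver apart. Some list genes that went against the others of their list were named as well. Levels between genes were compared per kb of merged GENCODE vM21 exon. Each liver is 1 mouse, so the spread is between mice. Replicates differed by more than sampling noise (mean chi-square per gene 14.5 to 85.9).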

Additional observations from a re-analysis of the deposited data

How the results depend on the processing

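Calls on the 10 genes changed little with the processing. In NTC-CCl4 against NTC-Veh 8 to 9 were called under every alternative that kept all livers, and 6 to 9 when 1 liver was left out. In sgBap1-CCl4 against sgBap1-Veh these counts were 7 to 10 and 7 to 8, and in the genotype comparisons and the interaction 0 throughout. With library size alone the median of all tested genes rose by 0.47 and 0.48 in the CCl4 comparisons, and 80.5% and 78.3% of calls were rises in place of 50.8% and 50.9%. For sgBap1-CCl4 against NTC-CCl4 the share was 50% in place of 60.7%.

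Replicate numbers did not pair the livers (correlations of deviations of same-numbered livers from -0.15 to 0.10). With the replicate block Loxl1 passed in NTC livers (1.91, adjusted p = 0.0321), as it did with only the 2 groups fitted (1.47, adjusted p = 0.0418). With the block, sgBap1-Veh against NTC-Veh turned from -0.012 to 0.020 for Pdgfra, from -0.0060 to 0.016 for Pdgfrb and from -0.20 to 0.026 for Loxl1. Pdgfrb was also at 0.0035 with DESeq2 size factors and at 0.0016 in DESeq2. Without a filter Loxl1 lost its call in sgBap1 livers (adjusted p = 0.0816). In the block the count over all genes for sgBap1-Veh against NTC-Veh was 1, against 69 in the fit as reported, and in DESeq2 it was 553. For sgBap1-CCl4 against NTC-CCl4 DESeq2 called 481 against 56, and for the interaction 408 against 0. Of the list genes, 1 was called in sgBap1-Veh against NTC-Veh, against 0 with library size alone, a minimum mean of 10 counts, the block or only the 2 groups, and 7 in DESeq2. In sgBap1-CCl4 against NTC-CCl4 and in the interaction DESeq2 called 4 list genes each, against 0. The cause was not tested.

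When 1 liver was left out, which for vehicle groups leaves a lone liver assumed to vary like the others, the list genes called ranged from 0 to 3 and from 0 to 1 in the 2 genotype comparisons. The signs that turned were all of log2 fold changes not called, the largest being the Loxl1 interaction, 1.04 with all livers. In sgBap1-Veh against NTC-Veh log2 fold changes ran from -0.37 to 0.0061 for Acta2, -0.33 to 0.12 for Tagln, -0.057 to 0.17 for Des, -0.19 to 0.14 for Pdgfra, -0.25 to 0.29 for Pdgfrb, -0.075 to 0.28 for Reln and -0.88 to 1.10 for Loxl1. In sgBap1-CCl4 against NTC-CCl4 they ran from -0.043 to 0.85 for Acta2, -0.043 to 0.54 for Pdgfra, -0.11 to 0.20 for Pdgfrb, -0.14 to 0.082 for Reln, -0.031 to 1.17 for Lox and -0.11 to 1.21 for Loxl1. For the interaction they ran from -0.0076 to 0.32 for Des, -0.034 to 0.55 for Pdgfra, -0.23 to 0.31 for Pdgfrb, -0.31 to 0.047 for Reln, -0.40 to 0.80 for Lox, -0.26 to 1.72 for Loxl1 and -0.41 to 0.12 for Loxl2. Reln in sgBap1-CCl4 against sgBap1-Veh ran from -0.12 to 0.23. Depth limited Lox in vehicle livers, at 6 to 10 counts.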

Other observations

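Other cell types of the liver were read from the same libraries, beside 27.4% of all tested genes that rose and 26.6% that fell with CCl4 in NTC livers, and 29% and 28% in sgBap1 livers. Of 6 hepatocyte genes, 5 fell and none rose in NTC-CCl4 against NTC-Veh, and 2 fell in sgBap1-CCl4 against sgBap1-Veh. Scaled by library size alone, 3 fell and none rose in NTC livers, and 1 rose and 2 fell in sgBap1 livers. The interaction called none of the 6, so the counts were not shown to differ between the genotypes. Cyp2e1, the cytochrome that activates CCl4, fell by 5.71 and by 6.08 on the log2 scale. Of 8 sinusoidal endothelial genes, 5 rose in NTC livers, and 3 rose and 2 fell in sgBap1 livers, with the hyaluronan receptor gene Lyve1 at log2 fold changes of 1.60 and 1.77 and Pecam1 at 1.29 and 1.05. With library size alone 6 rose and none fell in NTC livers, and 5 rose and none fell in sgBap1 livers. Without sgBap1-CCl4 replicate 2 the sinusoidal genes were 3 higher and 0 lower in sgBap1 livers. Of 5 bile duct genes, 1 rose and 1 fell in each genotype, Sox9 (2.20 and 2.01) and Cldn3 (-0.44 and -0.33), shares below those over all genes, and with library size alone 1 rose and none fell in either genotype. Without sgBap1-CCl4 replicate 2 the bile duct genes were 1 higher and 0 lower in sgBap1 livers. Of 4 lymphatic endothelial genes, 1 rose in NTC livers, Flt4 (0.60), and none was called in sgBap1 livers. Of the fat cell genes only Adrb3 passed the low-count filter, and it fell by 3.10 on the log2 scale in NTC livers.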
